A study of Mus musculus with 6 samples.

Results

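Dual-specificity MAP kinase phosphatases (MKPs) were examined in taste cells isolated from mouse circumvallate (CV) and foliate (Fol) papillae, the epithelial folds of the posterior tongue that carry most of its taste buds. They were chosen by name as 10 genes of the family, Dusp1, Dusp2, Dusp4, Dusp5, Dusp6, Dusp7, Dusp8, Dusp10, Dusp14 and Dusp16, with their deposited values at both ages already known. All 10 have a row in the table of 23361 genes. The libraries came from C57BL/6 mice with no genetic change or treatment named in the labels, 3 libraries at 2 months of age and 3 at 6 months, and each library pooled the cells of 4 mice at 2 months and of 3 mice at 6 months. The series' design text gives the younger age as 3 months in one place, and the sample labels were followed. The cells were freed from the lingual epithelium with enzymes and drawn up by pipette, without sorting. RNA was selected by its poly(A) tail and sequenced.

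The table holds 1 value per gene and age, in FPKM (a fragment count corrected for the length of the transcript and the size of the library), which is the authors' value over the 3 libraries of that age. Values of single libraries were not analysed here. The spread between the pools is therefore unknown, no SD or test is given, and these values offer no replicate check of any difference below. The paper reports quantitative RT-PCR on replicate pools of taste cells, in which Dusp1, Fos and Jun were significantly lower at the older age. Since FPKM does not preserve depth, the depth is unknown as well. The members were picked with their change in view, so the differences between the ages are descriptions. A change is log2(FPKM + 1) at 6 months minus log2(FPKM + 1) at 2 months, a scale that understates differences of weakly expressed genes. A gene whose FPKM averaged 1 or more over the ages was called expressed, and a gene was called past the fold at a change of at least 1.5-fold on that scale, a log2 change of 0.58. In a bulk sample, fewer cells of a type and less RNA per cell cannot be told apart.

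MKPs switch off MAP kinases by removing phosphate from both the threonine and the tyrosine of the kinase activation loop. Several are themselves transcribed in response to MAP kinase activity, so that the pathway limits its own output. The family is usually divided into nuclear enzymes whose genes are rapidly induced (Dusp1, Dusp2, Dusp4, Dusp5), cytoplasmic enzymes directed at ERK (Dusp6, Dusp7) and enzymes directed mainly at p38 and JNK (Dusp8, Dusp10, Dusp16). Dusp14 is a small atypical member that lacks the kinase-binding domain of the others.

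The genes lie on 10 different chromosomes of GRCm38, so no pair shares a locus. By the RefSeq annotation, Dusp1 spans chr17:26505591-26508472 on the minus strand and Dusp14 spans chr11:84048033-84069256 on the minus strand. Dusp5 spans chr19:53529145-53541809 and Dusp6 spans chr10:99263231-99267489, both on the plus strand. In GENCODE the principal transcript has 4 exons for Dusp1, Dusp5 and Dusp14, and 3 for Dusp6. Dusp6, Dusp8 and Dusp16 are overlapped by other RefSeq genes, none of which has a row in the table. The kit is not stated to keep strand, so reads of an overlapping gene cannot be told from theirs.

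Promoter windows, 250 bases before to 50 bases after the start that RefSeq gives, were at hand for 9 of the 10 genes, all but Dusp4. They were searched on both strands for a cAMP response element (letters TGACGTCA), an AP-1 site (letters TGACTCA) and the CArG box, the core of the serum response element. No matches of these motifs overlapped in the 9 windows. The stretches below, from 160 to 51 bases before the start, are shown because they hold all the matches found. Capitals mark the cAMP response element in Dusp1 and Dusp8 and the CArG boxes in Dusp5, and each sequence runs 5′ to 3′ on the gene's own strand, from RefSeq, GRCm38.p6.

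Dusp1, minus strand, chr17:26508523-26508632: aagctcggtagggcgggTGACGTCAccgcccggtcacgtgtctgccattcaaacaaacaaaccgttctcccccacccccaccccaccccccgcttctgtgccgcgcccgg

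Dusp5, plus strand, chr19:53528985-53529094: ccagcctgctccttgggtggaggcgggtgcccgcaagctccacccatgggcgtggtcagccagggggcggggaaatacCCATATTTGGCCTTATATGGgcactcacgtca

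Dusp8, minus strand, chr7:142095335-142095444: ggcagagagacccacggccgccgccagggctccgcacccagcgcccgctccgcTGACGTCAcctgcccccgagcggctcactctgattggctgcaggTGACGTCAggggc

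Dusp1 held 1 cAMP response element, at 143 to 136 bases before the start. Dusp8 held 2, at 107 to 100 and 63 to 56 bases before the start, in a stretch that is intronic in a longer GENCODE transcript of the gene. Dusp5 held 2 CArG boxes side by side, at 82 to 73 and 72 to 63 bases before the start. Of all 32851 promoter windows of the RefSeq table, 1.79% held the cAMP response element, 1.63% the CArG box and 5.20% the AP-1 site. The letters of the AP-1 site were found in 0 of the 9 windows. Dusp14 and Dusp6 held none of the searched motifs in these windows. The windows of Dusp14, Dusp16 and Dusp8 lie inside the RefSeq spans of these genes. The sequence before the far end of each span was not searched. All 9 windows were rich in G and C, at 57.3% to 78.7% against a median of 52.7% over all windows. Their observed to expected ratio of CpG was 0.713 to 1.02, against a median of 0.384. The motif shares over all windows were not matched for this, and the letters of the cAMP response element contain a CpG. The share for that element is therefore not a like-for-like background. A match is a run of letters and does not show that a factor bound there.

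**Figure D1:**
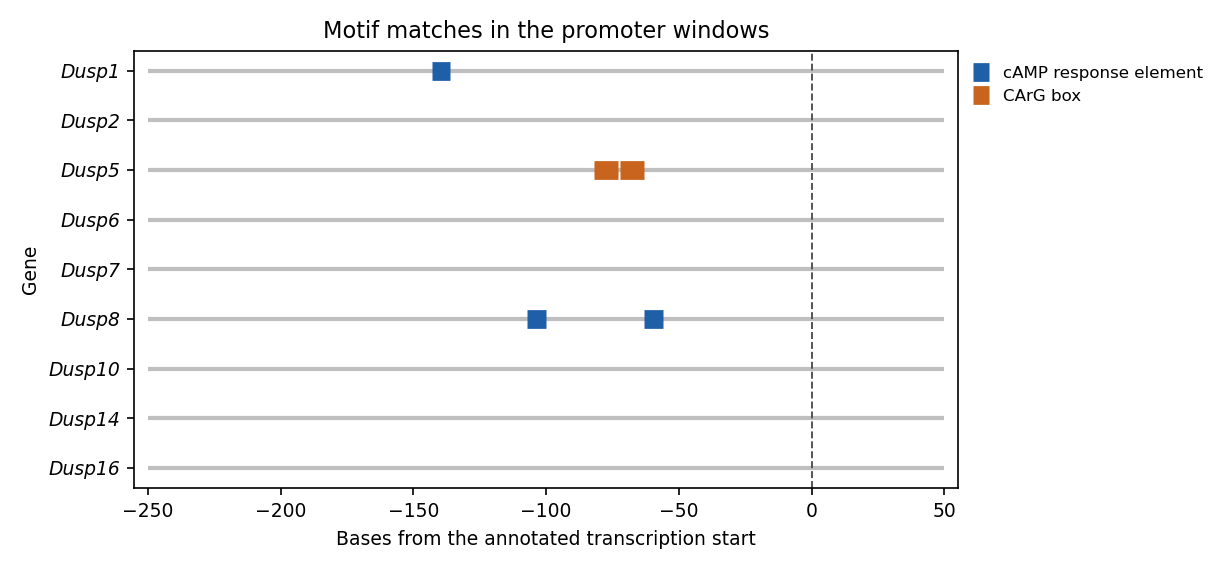
Matches of the cAMP response element (blue) and the CArG box (orange) in the promoter windows of 9 MKP genes, drawn by distance in bases from the annotated transcription start (dashed line). Matches lie in Dusp1, Dusp5 and Dusp8 only, between 143 and 56 bases before the start, and the other 6 lines are empty.

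MKP transcripts spanned a wide range of levels in 2 month taste cells, from 0.789 FPKM for Dusp2 to 80.4 FPKM for Dusp1. Dusp1, Dusp7 and Dusp14 were the most abundant at either age. At 6 months Dusp14 and Dusp1 were lower past the fold, Dusp5, Dusp6 and Dusp10 were lower by less, and the other members lay close to their 2 month values. Of the 10 genes, 9 were expressed. Of these 9, 7 were lower at 6 months and 2 higher. The split was the same with both scalings tried, but these shift all genes only slightly. Another pseudocount cannot change the direction of a gene. Over all 12652 expressed genes, 53.7% were lower at 6 months by any amount.

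Past the fold were 2 of the 9 expressed members, both lower, and 0 were higher. Of all 12652 expressed genes, 1.72% were lower past the fold and 1.05% were higher past it. At a log2 change of at least 0.32 in size, 4 members were lower, beside 4.23% of all expressed genes, and 0 were higher, beside 2.95%. At 2-fold, 0 members were lower and 0 higher, beside 1.04% and 0.561% of all expressed genes. The median log2 change of the 9 genes was -0.30, and over all expressed genes it was -0.01 with quartiles of -0.10 and 0.08. With Dusp2 included, the median of the 10 was -0.23.

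**Figure D2:**
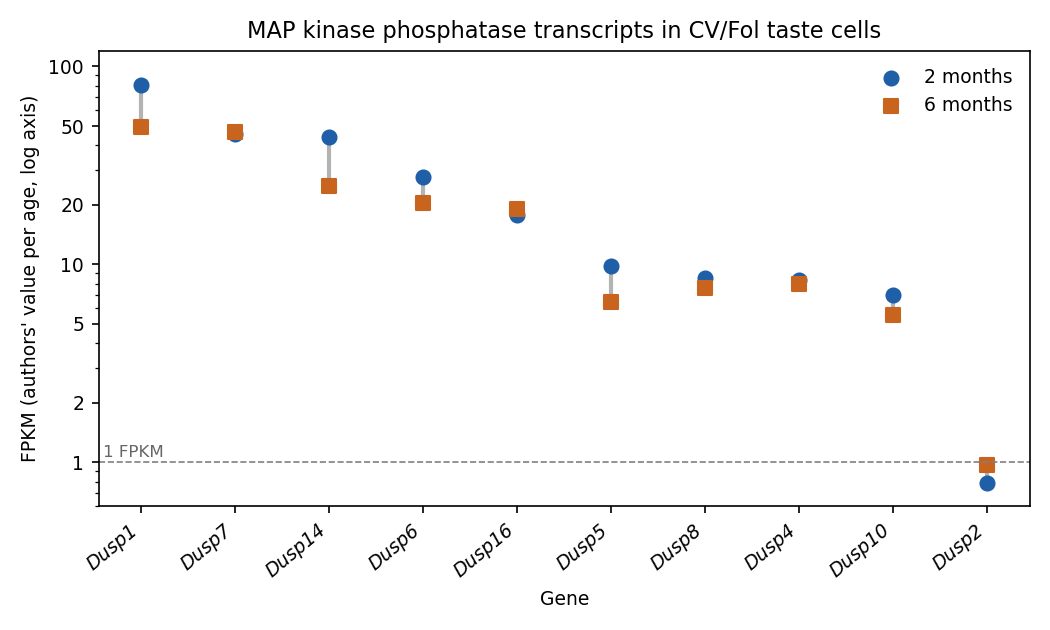
FPKM of the 10 MKP genes in 2 month (blue circles) and 6 month (orange squares) taste cells on a log axis, 1 authors' value per age, with no error bars since values per library were not analysed. Dusp1, Dusp14, Dusp6 and Dusp5 show visible gaps between the ages, and Dusp2 lies below the dashed line at 1 FPKM.

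The inducible nuclear enzymes differed among themselves. Dusp1, or MKP-1, inactivates p38, JNK and ERK in the nucleus and is an immediate early gene. Its level was 80.4 FPKM in 2 month and 49.7 FPKM in 6 month taste cells, which is 38.2% lower. The log2 change was -0.68, and 1.46% of all expressed genes had a change as low or lower. Among the 2142 expressed genes with a mean level within 2-fold of its own, that share was 1.82%. Dusp1 ranked above 91.4% of expressed genes at 2 months and above 86.1% at 6 months, and it remained the most abundant member.

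Dusp5, a nuclear phosphatase selective for ERK, was at 9.80 FPKM at 2 and 6.44 FPKM at 6 months, 34.2% lower. The log2 change of -0.54 stops short of the fold on the log2(FPKM + 1) scale. With a pseudocount of 0.1 FPKM it was -0.60, which is past the fold. At levels within 2-fold of its own, 1.68% of 4772 genes were as low or lower. Dusp5 and Dusp1 thus had proportional differences of like size, although Dusp1 was the far more abundant transcript.

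Dusp4, or MKP-2, also a nuclear enzyme, was at 8.32 FPKM at 2 months against 7.94 FPKM at 6 months, and its log2 change was -0.06. This lies inside the quartiles of all expressed genes. Dusp5 was 1.18 times as high as Dusp4 at 2 months and 0.812 times as high at 6 months. Dusp2, also known as PAC1 and best known from activated lymphocytes, had 0.789 FPKM in 2 month and 0.972 FPKM in 6 month taste cells. It stayed under 1 FPKM at both ages, so it enters none of the counts of expressed genes, and its log2 change was 0.14.

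The ERK-directed cytoplasmic pair differed from each other. Dusp6, or MKP-3, which binds and dephosphorylates ERK and is itself induced by ERK signalling, was at 27.6 FPKM at 2 and 20.3 FPKM at 6 months. That is 26.2% lower, a log2 change of -0.42, and 2.75% of all expressed genes were as low or lower. Dusp7, or MKP-X, was at 45.6 FPKM at 2 months against 46.5 FPKM at 6 months, and its log2 change was 0.03. The level of Dusp6 was 0.604 times that of Dusp7 at 2 months and 0.438 times at 6 months.

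The p38- and JNK-directed enzymes showed smaller differences than Dusp1, Dusp5, Dusp6 and Dusp14, but larger ones in size than Dusp4 (-0.06) and Dusp7 (0.03). They are therefore not set apart from the other classes as a whole. Dusp10, or MKP-5, was at 7.01 FPKM in 2 month and 5.52 FPKM in 6 month taste cells, 21.3% lower with a log2 change of -0.30. Dusp8 was at 8.58 and 7.59 FPKM, a log2 change of -0.16. Dusp16, or MKP-7, was at 17.7 and 19.0 FPKM, a log2 change of 0.10. None of the 3 was past the fold, and 4.63%, 13.5% and 18.2% of expressed genes at like levels, respectively, had a change at least as far in the same direction.

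Dusp14, or MKP-6, showed the lowest change of the 10 genes. It was at 43.8 FPKM at 2 and 24.9 FPKM at 6 months, 43.3% lower, a log2 change of -0.79. Of all expressed genes, 1.27% had a change as low or lower, and among the 3664 genes within 2-fold of its level the share was 1.23%. At 2 months Dusp14 stood next to Dusp7, at 0.962 times its level. At 6 months it was at 0.535 times the level of Dusp7.

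The order of the levels was Dusp1, Dusp7, Dusp14, Dusp6 and Dusp16 from the highest down at both ages. Below them, Dusp5, Dusp8, Dusp4 and Dusp10 lay between 7.01 and 9.80 FPKM at 2 months and between 5.52 and 7.94 FPKM at 6 months. Dusp5 led these 4 genes at 2 months and ranked below Dusp4 and Dusp8 at 6 months. Dusp1 was 1.76 times as high as Dusp7 at 2 months and 1.07 times as high at 6 months. Dusp6 was 1.56 times as high as Dusp16 at 2 months and 1.07 times at 6 months. Whether neighbours this close differ beyond the spread between pools cannot be said from 1 value per age.

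Summed over the 10 genes, MKP transcripts amounted to 249.6 FPKM at 2 months against 188.8 FPKM at 6 months, 24.4% lower. Dusp1 and Dusp14 made up 81.8% of that net difference. Both were singled out as the members past the fold in these same values, so their large share is partly a result of that choice. They held 49.8% of the sum at 2 months and 39.5% at 6 months. The other 8 genes together went from 125.3 to 114.3 FPKM, 8.85% lower.

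**Figure D3:**
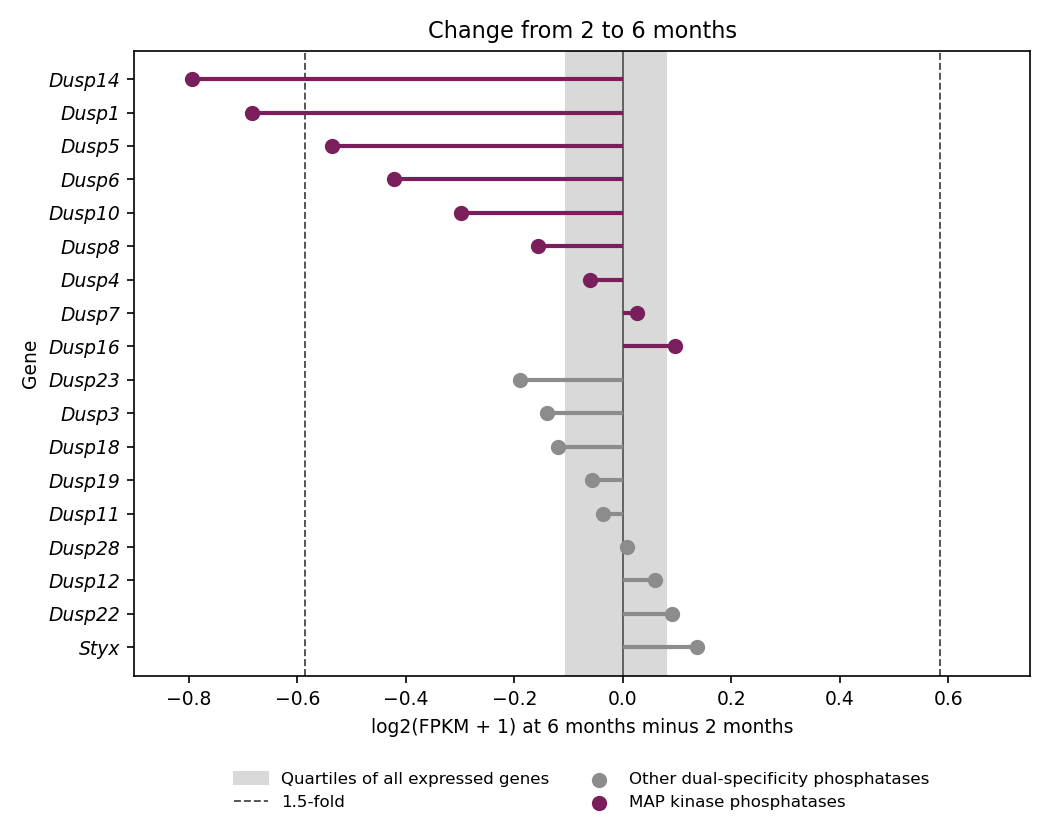
Change from 2 to 6 months, as the difference of log2(FPKM + 1), for the 9 expressed MKP genes (purple) and the 9 expressed genes of a list of other dual-specificity phosphatases (grey). The shaded band spans the quartiles of all 12652 expressed genes and the dashed lines mark 1.5-fold. Dusp14 and Dusp1 lie beyond the left line, and the grey genes stay between -0.19 and 0.14.

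Differences of this size were not seen among the expressed members of a list of other dual-specificity phosphatases. Of 17 listed, 9 were expressed, and 0 of the 9 were past the fold in either direction. Of all expressed genes, 1.72% were lower and 1.05% higher past the fold, so 0 of 9 does not set the list apart. The changes of the 9 ran from -0.19 for Dusp23 to 0.14 for Styx, a catalytically inactive relative, with a median of -0.04. Dusp22, an atypical phosphatase linked to JNK signalling, was at 70.2 FPKM in 2 month and 74.8 FPKM in 6 month taste cells, the highest of the list. Dusp11, which acts on RNA, was at 41.7 and 40.7 FPKM. Dusp3, or VHR, an atypical phosphatase that also acts on ERK and JNK, was at 2.80 and 2.45 FPKM. The summed level of the list was 154.0 FPKM at 2 and 157.5 FPKM at 6 months. The summed level of Dusp1 and Dusp14 was 0.807 times that of the list at 2 months and 0.473 times at 6 months. Dusp9, or MKP-4, the remaining typical MKP, was at 0.236 and 0.320 FPKM.

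Phosphatases of other families that act on MAP kinases or their activators were also listed. Of 6, 3 were expressed and 0 were past the fold, beside 1.72% lower and 1.05% higher among all expressed genes. Ppm1d, which dephosphorylates p38 among other proteins, was at 14.1 and 11.5 FPKM, and its log2 change was -0.27. Ppm1a, which can dephosphorylate p38 and JNK pathway kinases, was at 41.2 FPKM at both ages, and its relative Ppm1b was at 31.3 and 31.1 FPKM. The tyrosine phosphatase genes Ptprr, Ptpn5 and Ptpn7 were all under 1 FPKM.

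The kinases that MKPs act on, and those above and below them, had changes close to 0, as did most expressed genes. The quartiles of all expressed genes were -0.10 and 0.08, and 1.72% were lower and 1.05% higher past the fold. Of 41 listed kinase and Ras genes, 40 were in the table and 39 were expressed, and 0 were past the fold in either direction. The log2 change was at most 0.25 in size for 38 of the 39. The exception was Map3k8, or Tpl2, a kinase upstream of ERK, which was at 4.44 FPKM at 2 months against 2.88 FPKM at 6 months, and its log2 change was -0.49. With a pseudocount of 0.1 FPKM it was past the fold. The median log2 change of the 39 genes was 0.03.

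Among the MAP kinases themselves, Mapk3, which encodes ERK1, stood at 98.6 FPKM in 2 month cells and at 96.3 FPKM in 6 month cells. Mapk14, the gene of p38 alpha, was at 40.2 and 41.2 FPKM. Mapk8 and Mapk9, the JNK1 and JNK2 genes, had log2 changes of -0.06 and -0.03. The lowest change was that of Mapk13, the p38 delta gene, at 102.5 FPKM in 2 month and 86.1 FPKM in 6 month taste cells, and its log2 change was -0.25. These are transcript levels and carry no information on enzyme activity.

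A list of genes that ERK signalling is known to induce, or that feed back on it, had 0 members past the fold. Of all expressed genes, 1.72% were lower past the fold and 1.05% higher. Immediate early genes were listed apart, below, and are not covered by this count. Of the 14 genes of the ERK list, 11 were expressed. Of these 11, 8 were lower by any amount and 3 higher, beside 53.7% lower among all expressed genes. Their median log2 change was -0.13. Etv5, an ETS transcription factor, was at 14.5 FPKM at 2 and 10.7 FPKM at 6 months, and its log2 change was -0.41, which is near that of Dusp6. Spry1, a Sprouty inhibitor of receptor tyrosine kinase signalling, had -0.30 and its relative Spry2 had -0.13. Ccnd1, the cyclin D1 gene, had the highest change of the list, 0.28, with 76.1 FPKM at 2 months against 92.3 FPKM at 6 months.

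Immediate early genes, the class to which Dusp1 belongs, held larger changes than the MKPs. Of 26 listed, 25 were expressed, and 8 were lower past the fold and 0 higher, with 24 of the 25 lower by any amount. Of all expressed genes, 1.72% were lower and 1.05% higher past the fold, and 53.7% were lower by any amount. The median log2 change of the 25 was -0.37. The changes of Dusp1 and Dusp14 lie between those of Ier3 (-0.60) and Cyr61 (-0.99), and the 5 lowest changes of the list, from Fos at -1.87 to Jun at -1.15, were all below that of Dusp14. Of 6 genes induced by glucocorticoids, a class to which Dusp1 is also known to belong, 5 were expressed and 0 were past the fold. Beside the same shares of all expressed genes, 0 of 5 does not set this list apart. The median log2 change of the 5 was 0.14. Per1 had 0.47, at 11.8 FPKM in 2 month and 16.8 FPKM in 6 month taste cells, and Klf9 had -0.22. In this list 4 of 5 genes were higher at 6 months by any amount and 1 was lower, beside 53.7% lower among all expressed genes. Whether glucocorticoids bear on the level of Dusp1 was not tested.

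**Figure D4:**
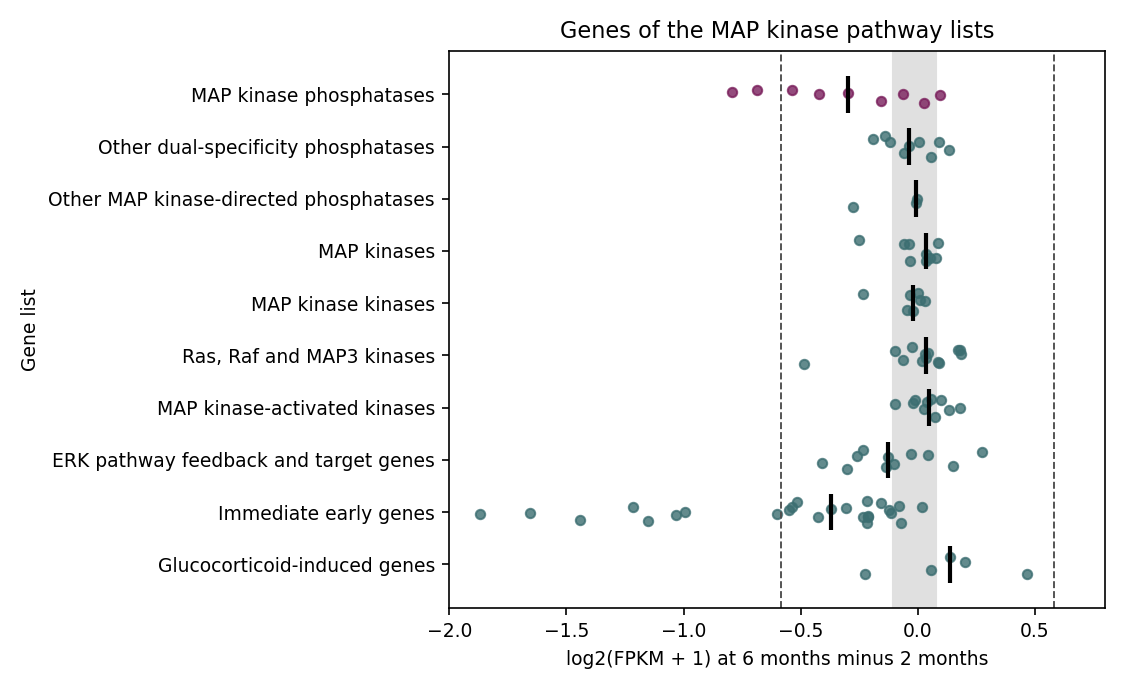
Change from 2 to 6 months, as the difference of log2(FPKM + 1), for each expressed gene (points, spread vertically for legibility) of the MKP genes and 9 related lists, with the median of each list (black bars), the quartiles of all expressed genes (band) and 1.5-fold (dashed lines). Points beyond the left dashed line occur among MKPs (2 genes) and immediate early genes (8 genes) and in none of the other lists.

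Markers of the cells present were read beside these values. Type II taste cell markers, such as Trpm5 and Gnat3, were expressed in 6 of 6 genes, with a median log2 change of 0.01 and a summed level of 228.7 FPKM at 2 and 235.4 FPKM at 6 months. Of the type III markers 6 of 6 were expressed, summed at 32.4 and 37.3 FPKM, with a median of 0.16. Of the type I markers, Entpd2 was at 66.1 and 57.7 FPKM, Kcnj1 at 9.25 and 7.71 FPKM and Slc1a3 at 0.710 and 0.988 FPKM. Among all 15 of these taste cell markers, 0 were past the fold, beside 1.72% lower and 1.05% higher among all expressed genes. With shares this low, 0 of 15 does not set them apart. By these levels, the libraries held taste cell transcripts at both ages.

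They also held keratinocyte transcripts. Basal markers Krt5, Krt14 and Trp63 summed to 3573 FPKM at 2 months against 3589 FPKM at 6 months, and 0 of the 3 were past the fold. Each marker count here stands beside 1.72% lower and 1.05% higher past the fold among all expressed genes. A count of 0 in so short a list does not set it apart. Of the 5 differentiated keratinocyte markers counted as expressed, 4 were lower past the fold, Krt4 among them by an entry of 0. Krt10 was at 149.7 and 70.5 FPKM, Lor at 1292 and 732.9 FPKM and Ivl at 32.9 and 21.5 FPKM. Krt1, at 40.7 and 27.2 FPKM, did not pass the fold. Krt4 is listed at 7334 FPKM at 2 months and at 0 at 6 months, and Krt13 is listed at 0 at both ages. Krt6a, another abundant keratin and named after its values were seen, is listed at 0 at 2 months and at 3391 FPKM at 6 months. A listed 0 for such a gene can be a failed estimate, so the Krt4 entries are not read as a change and were left out of the sum. Without Krt4 the list summed to 1515 FPKM in 2 month and 852.1 FPKM in 6 month taste cells. Of the fibroblast markers, Dcn was at 42.0 and 27.3 FPKM, while the other 4 were each under 1 FPKM and summed to 0.492 and 0.294 FPKM. Skeletal muscle markers were higher past the fold in 4 of 4 expressed genes, with summed levels of 7.32 and 16.7 FPKM. These are weakly expressed genes, each at 5.57 FPKM or less. Leukocyte markers summed to 309.6 and 267.7 FPKM with 0 of 4 past the fold, and the 3 endothelial markers were under 1 FPKM at both ages. The part that differentiated keratinocytes, or any other cell type, had in the lower values of Dusp1, Dusp14, Dusp5 and Dusp6 was not tested.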

How the data were processed

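Each age was represented by 3 poly(A)-selected libraries of pooled CV/Fol taste cells. Per the labels and the study's methods, the authors mapped reads to GRCm38/mm10 with TopHat2 2.0.7 and RefSeq gene models and used Cufflinks 2.1.1 and Cuffdiff. The library normalization is not given in the sources used here. The deposited table holds 1 FPKM value per gene and age over the libraries of that age, and the column letters were matched to the sample titles. It also holds the authors' unadjusted p-values of their comparison, which were not used. No column holds single libraries, so the design for 1 value per age was followed, and no SD, interval or test was computed. Precision is unknown because FPKM carries no depth.

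Changes were differences of log2(FPKM + 1). Genes averaging 1 FPKM or more were kept, and a change of at least 1.5-fold was counted. The members and the gene lists were chosen with earlier results of these data known. All members were named. Other genes named are phosphatases, cell type markers, at most the 5 largest changes per direction in a list, and the ends of a list with none past the fold. Mapk3, Mapk8, Mapk9, Mapk14, Spry1, Spry2, Ier3 and Cyr61 were named after their values were seen. The listed genes Hras and Flg have no row under these symbols. Promoter windows and gene spans were those of RefSeq on GRCm38.p6, and exons those of GENCODE M21. The fold counts were tested on simulated data, where 200 of 23361 genes were changed by 2-fold, and 200 of these and 0 unchanged genes were counted. No noise was added and the other genes were left exactly equal, so this checks the arithmetic and gives no error rate. Software was Python 3.11.15 with pandas 2.3.3, numpy 2.4.6 and matplotlib 3.10.9. The values of 1 MAP kinase gene are not reported here.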

Additional observations from a re-analysis of the deposited data

How the results depend on the processing

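No paired analysis was possible because only 1 value per age was deposited in the table used, so no replicate was left out in turn either. The number of members past the fold, all lower, was 2. It was 3 with a pseudocount of 0.1 FPKM, where Dusp5 joined, 4 at a log2 change of at least 0.32 in size and 0 at a fold of at least 2. It was 2 with no filter, with a mean of at least 5 FPKM, with both ages scaled to the same upper quartile and with centring on the median of the expressed genes. The median change of the expressed members was -0.30, and it ranged from -0.34 with the pseudocount of 0.1 FPKM to -0.23 with no filter. Over the pseudocount and the 2 scalings, the log2 change of Dusp1 ranged from -0.69 to -0.64 and that of Dusp14 from -0.82 to -0.75. Dusp5 ranged from -0.60 to -0.50, and Dusp6 from -0.44 to -0.38. Of 138 other values under an alternative, 131 stayed within the limits set and 0 of the called values changed direction. Part of this tally was fixed in advance. A count of 0 at 1.5-fold must stay 0 at 2-fold, and another pseudocount cannot change a direction. The stricter or looser fold changes a count by construction. The spread between pools is missing, which leaves the size of any error on these values unknown.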
